A study of Mus musculus with 18 samples.

Results

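A set of 10 chromatin regulator genes was followed through open-chromatin maps of mouse blood-forming cells: the SWI/SNF genes Smarca4, Smarca2, Smarcb1, Arid1a, Arid1b and Arid2 and the acetyltransferase genes Ep300, Crebbp, Kat6a and Kat6b. The genes were chosen by name. A region belonged to a gene where a peak summit lay in its body or within 50 kb of either end, on the mouse build mm10. This gave 201 of the 94178 regions found when the peak lists of all 6 groups were merged. A window can hold neighbouring genes, and for 149 of the 201 regions the nearest protein-coding gene was the named gene itself.

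ATAC-seq cuts open DNA with the Tn5 transposase, so that accessible stretches are read as peaks. The samples were haematopoietic progenitor cells (HPC) and haematopoietic stem cells (HSC), 18 in all. Mice 8 weeks old gave 2 knockout HPC, 4 wild-type HPC, 2 knockout HSC and 2 wild-type HSC samples. The knockout is of Kmt2c, also called Mll3, with the genotype Kmt2c f/f; Vav-Cre, in which Cre acts in blood cells; the deleted part of Kmt2c is not stated in the labels. Wild-type mice 16 weeks old gave 4 HSC samples after 3 injections, spaced 3 weeks apart, of 150 mg/kg of 5-fluorouracil, which is toxic to cells in cycle, and 4 HSC samples after as many injections of the vehicle PBS. The sort markers of the cells are not given in the labels. The question the design poses is where open chromatin differs between HPC and HSC, between genotypes and after chemotherapy.

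All samples of a group share 1 deposited peak list, so there was no spread between samples, no test and no p-value. The lists held 52840 regions in knockout HPC, 65832 in wild-type HPC, 48620 in knockout HSC, 40073 in wild-type HSC, 71363 in 5-fluorouracil HSC and 80100 in vehicle HSC. The read depth of the samples is unknown, and list length can follow depth and the number of samples pooled. The 16-week lists differ from the 8-week HSC lists in age, in injections and in the number of samples, and these cannot be told apart. Of the 7 HSC marker genes with an annotated start to look up, 6 had a region at the start in knockout HPC, 6 in wild-type HPC, 5 in knockout HSC, 4 in wild-type HSC, 7 in 5-fluorouracil HSC and 7 in vehicle HSC. Of 7 HPC marker genes the counts were 6, 6, 4, 4, 6 and 7 in the same order. Markers of other cell types were present in part: 1 or 2 of 5 T cell genes and of 5 neutrophil genes had a start region in each list, 2 of 3 erythroid genes and 1 of 3 B cell genes in every list, and 1 of 2 stroma genes in wild-type HPC and vehicle HSC. The T cell genes Cd3e, Cd3g and Cd8a and the B cell genes Cd79a and Pax5 had none in any list. The same held for the neutrophil genes S100a9, Camp and Ngp, the erythroid gene Hbb-bt and the macrophage gene Marco. Marco was the only 1 of 5 macrophage genes with an annotated start to look up. The part of such cells in the results was not tested. Kmt2c itself held at most 4 regions in its body in any list, which checks nothing about the deletion.

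SWI/SNF complexes use ATP to slide and evict nucleosomes. Each complex is built around an ATPase, Smarca4 or Smarca2. The BAF and PBAF forms hold core subunits such as Smarcb1 and a large ARID subunit. That subunit separates the BAF form (Arid1a or Arid1b) from the PBAF form (Arid2). Ep300 and Crebbp are closely related acetyltransferases that acetylate histones at enhancers, and Kat6a and Kat6b are histone acetyltransferases of the MYST family. Kmt2c is a histone methyltransferase of enhancers. In blood, Kat6a is known as a gene that stem cells need, and leukaemia translocations join Kat6a and Ep300 to other genes.

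A start region was listed in all 6 lists for each of the 10 genes, and the promoters of 5 of them are printed below. Promoter sequences matched 8 of the 10, all but Arid2 and Kat6a, and came from RefSeq on GRCm38.p6. For Arid2 and Kat6a the lower end of the gene was taken as its start. Each window ran from 250 bases before to 50 after an annotated start. A region reached the windows of Smarca4, Smarca2 and the outer start of Arid1a in all 6 lists. The windows of Smarcb1 and Ep300 were reached in every list but knockout HPC. Only the part outside the gene body is shown, which leaves none of the windows of Arid1b, Crebbp and Kat6b and of the inner start of Arid1a. The printed stretches end just before the gene's first base, run 5′ to 3′ on the gene's strand, and carry in capitals the motif of the KLF and SP factors (GGGCGG) and that of NRF1 (TGCGCA), on either strand.
Smarca4 promoter, plus strand, chr9:21615919-21616105: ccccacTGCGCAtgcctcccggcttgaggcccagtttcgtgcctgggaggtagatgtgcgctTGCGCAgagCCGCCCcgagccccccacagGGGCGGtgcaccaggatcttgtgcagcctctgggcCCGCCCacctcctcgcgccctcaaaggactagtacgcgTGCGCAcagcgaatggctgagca
Smarca2 promoter, plus strand, chr19:26604910-26605072: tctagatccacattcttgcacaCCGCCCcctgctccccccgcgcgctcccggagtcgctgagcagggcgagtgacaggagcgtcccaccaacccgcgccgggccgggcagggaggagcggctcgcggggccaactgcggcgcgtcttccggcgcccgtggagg
Smarcb1 promoter, minus strand, chr10:75921615-75921864: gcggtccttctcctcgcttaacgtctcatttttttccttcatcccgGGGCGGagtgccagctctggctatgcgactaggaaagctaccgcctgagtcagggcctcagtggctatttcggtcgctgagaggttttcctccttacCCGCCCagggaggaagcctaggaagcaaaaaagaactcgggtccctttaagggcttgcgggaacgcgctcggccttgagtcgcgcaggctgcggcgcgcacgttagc
Arid1a promoter, minus strand, chr4:133756770-133757019: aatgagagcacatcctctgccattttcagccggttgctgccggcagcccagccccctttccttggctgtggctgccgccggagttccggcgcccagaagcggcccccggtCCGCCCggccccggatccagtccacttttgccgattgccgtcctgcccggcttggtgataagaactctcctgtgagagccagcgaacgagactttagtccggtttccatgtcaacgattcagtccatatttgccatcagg
Ep300 promoter, plus strand, chr15:81585964-81586208: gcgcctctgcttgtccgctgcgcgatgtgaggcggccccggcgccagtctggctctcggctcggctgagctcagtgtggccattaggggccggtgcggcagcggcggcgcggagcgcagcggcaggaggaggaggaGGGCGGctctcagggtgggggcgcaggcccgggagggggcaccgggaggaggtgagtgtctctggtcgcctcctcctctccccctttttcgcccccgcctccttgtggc
The 10 windows of these 8 genes were rich in G and C, from 60.7% to 82.0%, where the median of all 32851 promoter windows was 52.7%. They held 22 to 49 CpG pairs, against a median of 7. GGGCGG was found in 10 of 10 windows, and in 35.7% of all windows. The 2 Kat6b windows share most of their bases, so the windows are not all separate sequences. Some matches of GGGCGG overlapped each other in the windows of Arid1a, Kat6b and Crebbp, and no other motifs overlapped.

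Other motifs were sparser. TGCGCA was in the windows of Smarca4 and Smarcb1 (7.76% of all windows), and the Smarca4 stretch held 3 matches. The ETS motif CCGGAAG was in the Smarca2 window (8.86% of all windows), the AP-1 motif TGANTCA in those of Smarca2 and Smarcb1 (7.81%), the RUNX motif TGTGGT in that of Arid1b (16.8%), and the YY1 motif ATGGCGG in that of Ep300 (4.05%). The GATA motif AGATAA, the E-box CACGTG and the motif CCAAT were in 0 of the 10 windows, and in 11.2%, 7.15% and 37.4% of all windows. Both strands were searched, and a match is a description of the letters only.

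The windows differed most in how many regions they held. Arid1b, the BAF subunit with the longest body of the 10, had 73 merged regions. It had the fewest in wild-type HSC, 27, and the most in vehicle HSC, 63. Crebbp had 8, Ep300 9 and Arid2 10. Smarcb1 had 13, Smarca4 14, Kat6a 16, Smarca2 19, Kat6b 19 and Arid1a 20. Set against window length, Arid1b held 16.1 regions per 100 kb, at percentile 95.8 of all 21887 protein-coding genes. Arid1a followed with 11.3 and Smarcb1 with 10.4, and Crebbp was lowest with 3.44. The median of the 10 genes was 7.20 per 100 kb, and the median of all genes was 6.18.

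**Figure D1:**
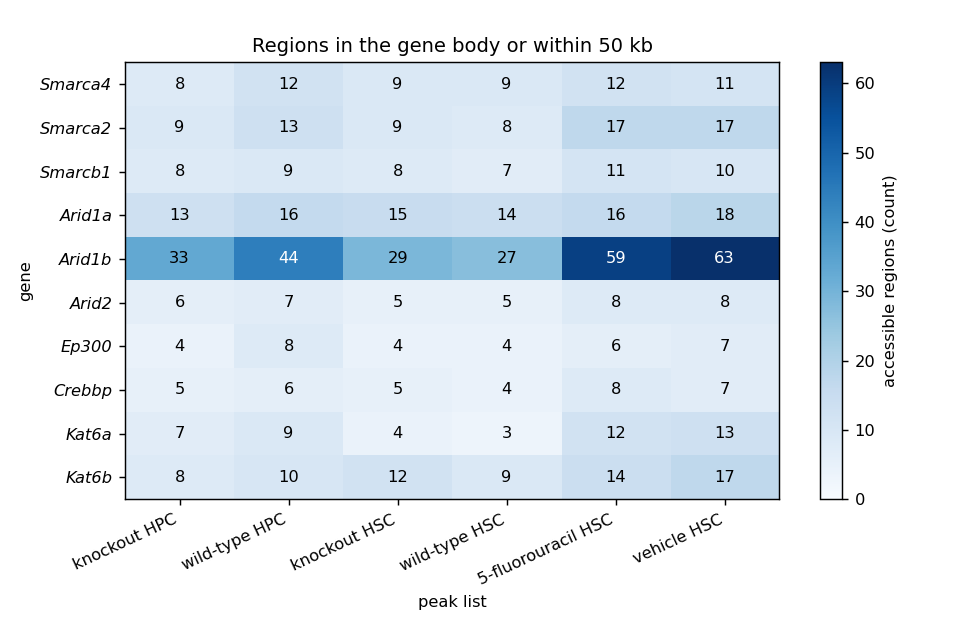
Number of accessible regions in the body of each gene or within 50 kb of it (rows) in each of the 6 peak lists (columns), printed in each cell and shown by colour. Arid1b holds the most regions in every list, from 27 in wild-type HSC to 63 in vehicle HSC, while Ep300 and Crebbp hold 8 or fewer in every list.

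By list, the 10 genes together held 101 regions in knockout HPC, 134 in wild-type HPC, 100 in knockout HSC, 90 in wild-type HSC, 163 in 5-fluorouracil HSC and 171 in vehicle HSC. These counts were 0.191%, 0.204%, 0.206%, 0.225%, 0.228% and 0.213% of those lists in the same order, so the genes held about the same share of a long list as of a short one.

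Of the 201 regions, 66 were in all 6 lists, which was 32.8% of them, and 32.2% of all merged regions were. A further 38 were in 1 list only, 18.9% of the 201 and 18.1% of all. A merged region counted as in a list where that list had any region within it. Regions of different lists could thus be joined through a wider region of another list without overlapping each other. The 66 included a Smarca2 start region and a Crebbp body region whose wild-type HPC and wild-type HSC regions did not overlap. Counted in this way, 12 of 13 regions at a gene start were in all 6 lists (92.3%). In the flanks 30 of 68 were (44.1%), and in the gene bodies 24 of 120 (20%). Over all merged regions the shares were 65.4% at a gene start, 29.5% in flanks and 27.1% in gene bodies, where a flank holds no other gene's body or start, as the flanks of the 10 genes can. The commonest partial pattern was presence in both 16-week HSC lists and in no 8-week list, with 31 regions or 15.4%, where 10.8% of all regions had it. Arid1b, which held 73 of the 201 regions, had 16 of those 31, Kat6a 5 and Smarca2 3. The share for the 10 genes thus leans on Arid1b.

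The 50 kb limit ran through an Arid1b region near 50 kb. Its main summit lay 49.95 kb past the gene end in knockout HPC, with a fold enrichment of 16.8, and 49.94 kb in wild-type HSC, with 12.2. A weaker summit of the same region lay just outside, at 50.23 kb in knockout HSC, where its fold enrichment was 1.93. Fold enrichment is the authors' ratio of signal at a summit to its local background.

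In what follows, the strength of a region is given by that fold enrichment and by its percentile, the share of regions in the same list with a −log10 p that was no higher. Percentile 100 is the strongest of a list. Both describe a region within its own list, and since the lists differ in length a higher percentile in one list shows no change.

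The regions at the gene starts came first. A region within 1 kb of a start was in all 6 lists for each of the 10 genes, 8 of them with an annotated start. Of 17492 protein-coding genes with an annotated start, 48.7% had such a region in all 6 lists. The start regions of the 10 genes ranged widely in strength. By percentile, Kat6b stood highest of the 10 in every list, between 98.0 and 99.9, and Smarca2 was between 86.2 and 95.8. Crebbp was lowest in wild-type HSC, at 18.7, and highest in vehicle HSC, at 69.2, and Smarcb1 between 11.3 in knockout HPC and 76.0 in vehicle HSC.

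**Figure D2:**
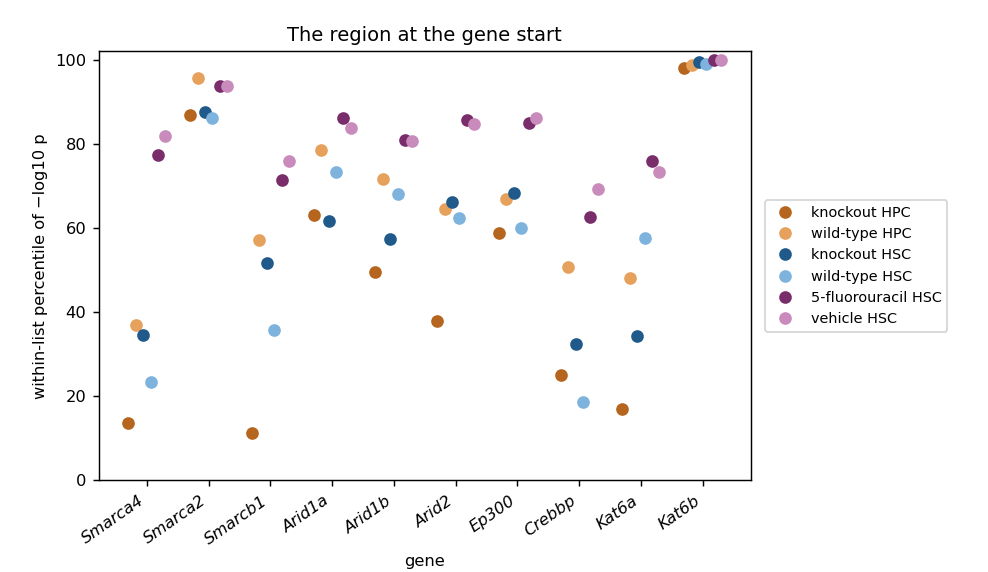
Within-list percentile of −log10 p (vertical axis, 100 the strongest region of a list) of the region at the start of each gene (horizontal axis), 1 point per peak list. Kat6b lies between 98.0 and 99.9 in every list and Smarca2 between 86.2 and 95.8, and for every gene but Smarca2 the 16-week HSC lists give the highest points.

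The ATPase genes Smarca4 and Smarca2 had unlike starts. Smarca4 lies at chr9:21616106-21704230. Its start region, chr9:21615453-21616880, had a fold enrichment of 8.16 in knockout HPC, 10.1 in wild-type HPC, 10.7 in knockout HSC, 9.38 in wild-type HSC, 11.5 in 5-fluorouracil HSC and 12.3 in vehicle HSC. Its percentiles were 13.6 in knockout HPC, 36.9 in wild-type HPC, 34.7 in knockout HSC, 23.5 in wild-type HSC, 77.4 in 5-fluorouracil HSC and 82.0 in vehicle HSC. The main summit was not at the same base in each list: measured from the annotated start, with negative values before it, it lay between -454 bp in wild-type HSC and -7 bp in 5-fluorouracil HSC. The NRF1 and GGGCGG matches printed above lie inside the region in all 6 lists.

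Smarca2, at chr19:26605073-26778321, had its main summit at nearly the same base in every list. Its position was -179 in knockout HPC, -185 in wild-type HPC, -171 in knockout HSC, -174 in wild-type HSC, -181 in 5-fluorouracil HSC and -181 in vehicle HSC. The region, chr19:26604555-26605414, had a fold enrichment of 14.0 in knockout HPC, 18.3 in wild-type HPC, 14.1 in knockout HSC, 14.7 in wild-type HSC, 12.5 in 5-fluorouracil HSC and 11.9 in vehicle HSC. A second, weaker region followed in the gene body. Its strongest summit lay 1659 bp past the start in knockout HPC and 1656 in wild-type HPC, but 2282 in knockout HSC, 2283 in wild-type HSC, 2289 in 5-fluorouracil HSC and 2293 in vehicle HSC. Both HPC lists placed it near the first position and all 4 HSC lists near the second. The HPC regions, which end at 26606943 in knockout HPC and 26606952 in wild-type HPC, did not overlap the regions of knockout HSC, from 26607173, and wild-type HSC, from 26607003. The 16-week HSC regions were wide enough to cover both positions. Fold enrichments were low in all 6 lists, between 4.00 in knockout HPC and 6.15 in wild-type HSC. The percentiles were 5.58 in knockout HPC, 24.1 in wild-type HPC, 26.9 in knockout HSC and 32.4 in wild-type HSC. They were higher in the 16-week lists, at 60.7 in 5-fluorouracil HSC and 61.7 in vehicle HSC.

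Away from the start, the strongest shared region of Smarca2 was chr19:26747548-26748612 in the gene body, 142.9 kb past the start, at percentiles 91.6 in knockout HPC, 92.5 in wild-type HPC, 88.3 in knockout HSC, 86.2 in wild-type HSC, 90.8 in 5-fluorouracil HSC and 92.4 in vehicle HSC. That region was among the strongest in all 6 lists.

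Smarcb1, the core subunit lost in rhabdoid tumours, lies at chr10:75896769-75921614 and had a start region at chr10:75920819-75922208. Its fold enrichment was 8.02 in knockout HPC, 13.3 in wild-type HPC, 15.4 in knockout HSC, 11.7 in wild-type HSC, 13.8 in 5-fluorouracil HSC and 14.9 in vehicle HSC. The main summit stood at -47 in wild-type HPC, -62 in knockout HSC, -36 in wild-type HSC, -42 in 5-fluorouracil HSC and -52 in vehicle HSC. In knockout HPC it stood 647 bp past the start, and the region listed there ended at 75921397, short of the printed promoter. The strongest shared region of the window, chr10:75892912-75893693, had its summit 143 bp from Derl3, with percentiles between 97.2 in knockout HPC and 99.0 in vehicle HSC.

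The BAF subunit gene Arid1a, at chr4:133679008-133756769, has 2 annotated starts, each with its own region in all 6 lists. The outer one, chr4:133756473-133757831, stood at percentile 63.1 in knockout HPC, 78.6 in wild-type HPC, 61.8 in knockout HSC, 73.4 in wild-type HSC, 86.2 in 5-fluorouracil HSC and 83.9 in vehicle HSC. Its main summit had 2 positions. In knockout HPC, wild-type HPC and knockout HSC it lay at -809, -806 and -777 bp, and in wild-type HSC, 5-fluorouracil HSC and vehicle HSC at -29, -37 and -35 bp. A strong region in the gene body, chr4:133706581-133707888, reached a fold enrichment of 30.5 in knockout HPC, 31.6 in wild-type HPC, 27.2 in knockout HSC, 27.3 in wild-type HSC, 24.7 in 5-fluorouracil HSC and 23.9 in vehicle HSC. It was at or above percentile 93.6 in every list.

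Arid1b, at chr17:4994297-5347656, had its main start summit away from the annotated base, between -729 bp in knockout HPC and -710 bp in vehicle HSC. The region, chr17:4993833-4996108, stood between percentile 49.6 in knockout HPC and 80.9 in 5-fluorouracil HSC. It reached the annotated promoter window in the HSC lists and in neither HPC list. The Arid1b body held a region high in every list, chr17:5327339-5328462, 332.8 kb past the start. Its fold enrichment was 20.5 in knockout HPC, 19.7 in wild-type HPC, 19.9 in knockout HSC, 20.9 in wild-type HSC, 18.1 in 5-fluorouracil HSC and 17.6 in vehicle HSC. It was at percentile 99.3 or higher in every list.

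Arid2, the PBAF subunit gene at chr15:96287522-96405463, had a start region at chr15:96286313-96287592 with percentiles between 37.8 in knockout HPC and 85.8 in 5-fluorouracil HSC. The summit of this start region lay in the neighbouring gene Gm38469. The strongest region of Arid2 was chr15:96377197-96377937 in the gene body. Its fold enrichment was 28.8 in knockout HPC, 26.6 in wild-type HPC, 30.9 in knockout HSC, 28.5 in wild-type HSC, 25.4 in 5-fluorouracil HSC and 26.3 in vehicle HSC. All 6 percentiles lay between 95.9 and 97.3.

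Ep300, at chr15:81586209-81652077, and Crebbp, at chr16:4081334-4213957, both had their main start summit well before the annotated start. That of Ep300 lay between -829 bp in 5-fluorouracil HSC and -815 bp in knockout HSC, and that of Crebbp between -996 bp in knockout HPC and -803 bp in wild-type HSC. The Ep300 region, chr15:81584918-81586741, had a fold enrichment of 12.6 in knockout HPC, 12.4 in wild-type HPC, 13.0 in knockout HSC, 11.5 in wild-type HSC, 12.1 in 5-fluorouracil HSC and 12.0 in vehicle HSC. These 6 values were close together. The Crebbp region, chr16:4213052-4214562, reached the annotated promoter window only in 5-fluorouracil HSC and vehicle HSC, where it was widest. Its fold enrichment was 10.2 in knockout HPC, 12.0 in wild-type HPC, 10.1 in knockout HSC, 8.62 in wild-type HSC, 10.4 in 5-fluorouracil HSC and 11.2 in vehicle HSC. A second region at the Crebbp start, chr16:4212241-4212533, was in every list but wild-type HSC. The strongest shared regions away from the start lay in neighbouring genes: chr15:81663540-81664539 in L3mbtl2, at a percentile of 90.8 or higher in each list, and chr16:4077313-4078164 in Trap1, at 66.8 or higher.

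Kat6a, known as MOZ, lies at chr8:22859442-22943259 and had a start region at chr8:22858555-22860477 with fold enrichments of 7.75 in knockout HPC, 10.1 in wild-type HPC, 11.0 in knockout HSC, 14.4 in wild-type HSC, 11.3 in 5-fluorouracil HSC and 10.3 in vehicle HSC. The strongest shared region, chr8:22838434-22839239, had its summit 20577 bp below the lower end of the gene, at percentiles between 81.2 in knockout HPC and 91.0 in vehicle HSC. Kat6b, known as MORF and at chr14:21499216-21672478, had the start region of the highest percentile among the 10, chr14:21500125-21501333. Its fold enrichments lay between 16.2 in knockout HPC and 18.7 in knockout HSC. It lay past both annotated starts, with the main summit between 765 bp downstream, in 5-fluorouracil HSC, and 1017 bp, in knockout HPC, and covered the promoter window in 0 of the 6 lists. A region in the neighbouring gene Dupd1, chr14:21706698-21707641, was at or above percentile 94.6 in each list.

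The comparison of knockout HPC with wild-type HPC gave few regions in knockout HPC alone. Of 101 regions of the 10 genes in knockout HPC, 8 were absent from wild-type HPC, 7.92% with a 95% Wilson interval of 4.07% to 14.9%. Over the whole knockout HPC list 6.96% were absent. Of 134 in wild-type HPC, 42 were absent from knockout HPC, 31.3% (24.1% to 39.6%), against 25.9% of the whole list. Both shares were near those of all regions. The first was 0% without the weakest 25% of each list, against 3.45% over all regions, and the second 15.2% with the longer list limited to the length of the shorter, against 13.5%. All intervals cover counting over regions only, and neighbouring regions are not independent.

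Each of the 10 genes had more regions in wild-type HPC alone than in knockout HPC alone, and 58.3% of all protein-coding genes did. With lists of equal length, 5 genes had more in wild-type HPC alone, 4 in knockout HPC alone and 1 was equal. The split of all genes at equal list length was not computed, here or in the comparisons below. Arid1b had the largest difference as deposited, with 2 regions in knockout HPC alone and 13 in wild-type HPC alone. The regions of a single list were weak: their median percentile was 8.73 in knockout HPC and 12.4 in wild-type HPC, where the shared ones had medians of 59.2 and 69.9.

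The strongest region of wild-type HPC alone was chr17:5270643-5271302 in Arid1b, with a fold enrichment of 13.9 at percentile 55.0. Next were chr10:75872484-75873248 near Mif in the Smarcb1 window, with 15.8 at percentile 47.2, and chr19:26697070-26697543 in Smarca2, with 18.6 at percentile 47.0. In knockout HPC alone the strongest were chr14:21559352-21559710 in Kat6b, with 11.3 at percentile 14.3, chr10:75954480-75954933 in Gm5134 beyond Smarcb1, with 9.36 at percentile 13.2, and chr17:5036246-5036488 in Arid1b, with 9.31 at percentile 10.5. Of these 6, only the first stood above the median of its list. Of the 42 regions absent from knockout HPC, 25 were found in vehicle HSC (59.5%, against 68.9% over all such regions).

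The comparison of knockout HSC with wild-type HSC ran with the longer list on the knockout side. Of 100 regions of the 10 genes in knockout HSC, 21 were absent from wild-type HSC, 21.0% (14.2% to 30%), against 25.9% of the whole list. Of 90 in wild-type HSC, 12 were absent from knockout HSC, 13.3% (7.79% to 21.9%), against 9.99% of the whole list. Here too the shares were near those of all regions. With lists of equal length the first was 10.7%, against 15.3% over all regions, and without the weakest 25% of each list the second was 2.90%, against 5.77%.

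Arid1b had 9 regions in knockout HSC alone and 7 in wild-type HSC alone, and Kat6b 4 and 1. Ep300 had 0 in either. In all, 6 genes had more in knockout HSC alone and 4 were equal, while 47.7% of all genes had more in knockout HSC alone and 9.44% more in wild-type HSC alone. Among the genes at equal length, 2 had more in knockout HSC alone, 3 in wild-type HSC alone and 5 were equal, and Arid1b had 3 and 9. The sign for Arid1b thus turned with list length.

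The strongest regions of knockout HSC alone were chr9:21602009-21602339 near Timm29 in the Smarca4 window, with a fold enrichment of 13.3 at percentile 43.6, chr16:4066126-4066530 in Trap1 beyond Crebbp, with 16.8 at percentile 42.8, and chr17:5124718-5125275 in Arid1b, with 12.9 at percentile 39.3. The strongest of wild-type HSC alone were chr17:5210911-5211419 and chr17:5223035-5223275 in Arid1b, with 12.0 at percentile 36.7 and 8.85 at percentile 33.9, and chr14:21610264-21610557 in Kat6b, with 13.4 at percentile 23.2. All 6 stood in the weaker part of their list. Of the 21 regions absent from wild-type HSC, 20 were found in vehicle HSC, which is also wild type (95.2%, against 93.3% over all such regions).

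A single region was in both knockout lists and in none of the 4 wild-type lists, chr10:75954480-75954933, in Gm5134 beyond the start of Smarcb1. Its fold enrichment was 9.36 in knockout HPC and 8.43 in knockout HSC, at percentiles 13.2 and 3.90. Of the 94178 merged regions, 27 had this pattern. The reverse, presence in every wild-type list with absence from both knockout lists, was found at 2 regions, 0.995% of the 201 and 0.847% of all. They were chr14:21610120-21610759 in Kat6b, with 13.4 in wild-type HPC, 13.4 in wild-type HSC, 9.87 in 5-fluorouracil HSC and 11.7 in vehicle HSC, and chr17:5261203-5261828 in Arid1b, with 6.47 in wild-type HPC, 7.86 in wild-type HSC, 4.05 in 5-fluorouracil HSC and 5.91 in vehicle HSC. Both were weak in each list that held them.

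**Figure D3:**
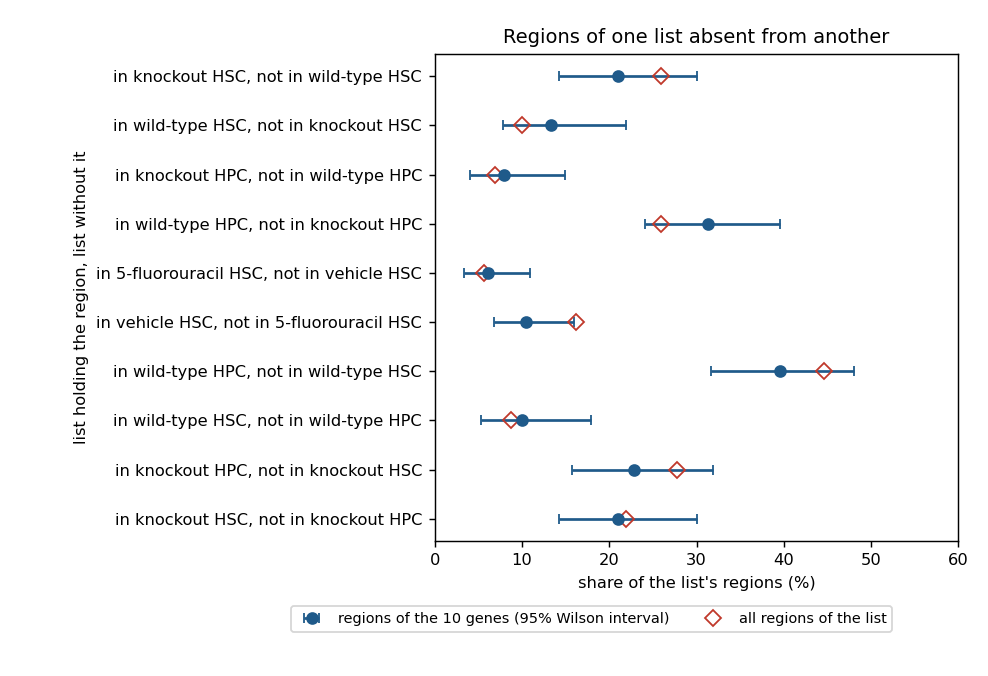
Share of the regions of a list that are absent from a second list (horizontal axis, in percent), for the 10 genes (filled points with 95% Wilson intervals) and for all regions of the list (open diamonds). The interval of the 10 genes includes the share of all regions in every row but that of vehicle HSC regions absent from 5-fluorouracil HSC, with 10.5% for the genes and 16.2% for all.

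In the comparison of 5-fluorouracil HSC with vehicle HSC, 10 of 163 regions in 5-fluorouracil HSC were absent from vehicle HSC, 6.13% (3.37% to 10.9%), against 5.61% of the whole list. Of 171 in vehicle HSC, 18 were absent from 5-fluorouracil HSC, 10.5% (6.76% to 16.0%), against 16.2% of the whole list. For vehicle HSC the upper limit of the genes' interval lay just under the share of all regions. At equal list length the shares were 12.3% of the regions in 5-fluorouracil HSC, against 8.93% over all regions, and 6.54% of those in vehicle HSC, against 9.41%.

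In this pair 6 genes had more regions in vehicle HSC alone, Arid1b with 2 in 5-fluorouracil HSC alone and 6 in vehicle HSC alone and Kat6b with 1 and 4. The other 4, Smarca4, Smarcb1, Arid2 and Crebbp, each had 1 in 5-fluorouracil HSC alone and 0 in vehicle HSC alone. Over all genes, 9.30% had more in 5-fluorouracil HSC alone and 46.5% more in vehicle HSC alone. With lists of equal length the split was 7 genes and 3, so the direction turned with list length. Whether it turned over all genes as well was not tested.

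The strongest of 5-fluorouracil HSC alone was chr4:133688326-133688847 in Arid1a, with a fold enrichment of 7.59 at percentile 41.8, and it was in no other list. After it came chr16:4199998-4200372 in Crebbp, with 4.75 at percentile 16.7, and chr19:26754221-26754836 in Smarca2, with 5.73 at percentile 14.9. In vehicle HSC alone, chr8:22928520-22928976 in Kat6a had 12.0 at percentile 45.2 and chr17:4974819-4975394 before Arid1b 10.4 at percentile 38.7. Another region of vehicle HSC stood far above these.

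That region was chr14:21653696-21654472 in the Kat6b body, 154.3 kb past the start. Its fold enrichment was 29.7 in knockout HPC, 30.0 in wild-type HPC, 28.6 in knockout HSC, 29.3 in wild-type HSC and, among the 16-week lists, 25.2 in vehicle HSC, and 5-fluorouracil HSC had no region there. Its percentile was 93.8 in knockout HPC, 94.7 in wild-type HPC, 88.2 in knockout HSC, 86.9 in wild-type HSC and, at 16 weeks, 87.1 in vehicle HSC, where it ranked 10355 of 80100. It was among the strong regions of every list that held it. Of 16021 vehicle HSC regions at or above percentile 80, only 4 were absent from 5-fluorouracil HSC (0.0250%), and this was the 1 among 44 such regions of the 10 genes.

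Over all merged regions, 167 were in the other 5 lists and missing from 5-fluorouracil HSC. Their median percentile in vehicle HSC was 31.7, and 3 of them reached 80. The region next to the one in Kat6b, chr14:21659701-21660002, was in all 6 lists, with a fold enrichment of 23.9 in 5-fluorouracil HSC and 29.9 in vehicle HSC. The labels do not say how peaks were filtered before deposit, and whether that removed the Kat6b region was not tested.

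**Figure D4:**
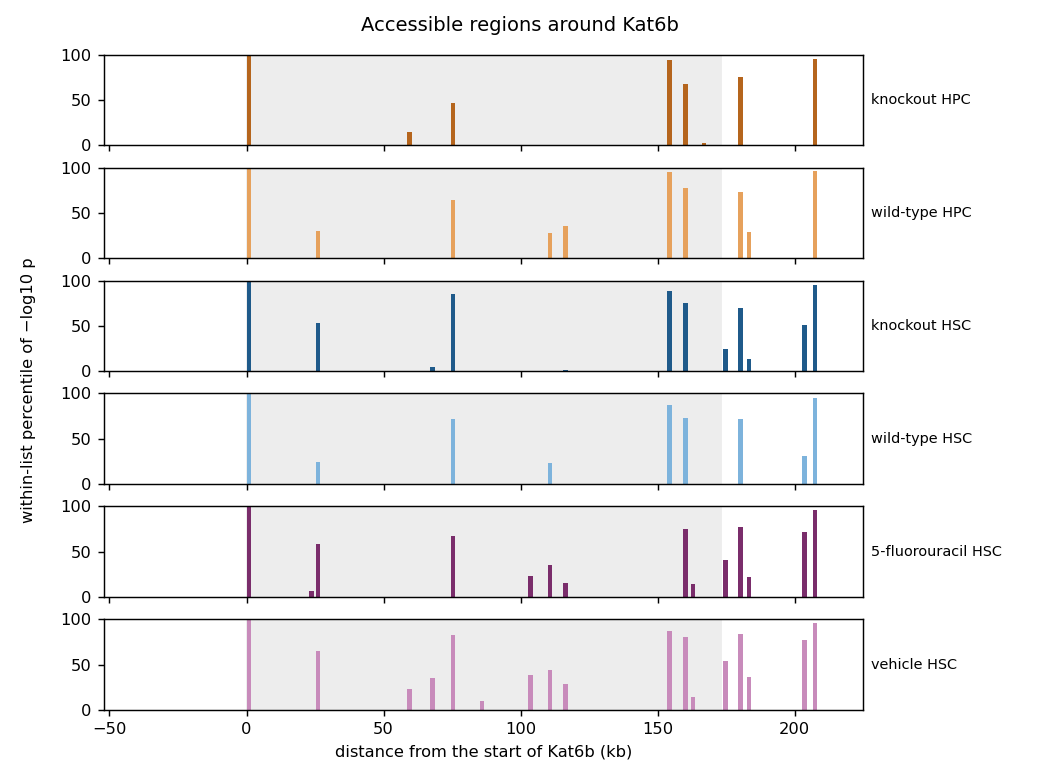
Accessible regions around Kat6b by distance from its start (horizontal axis, in kb; grey marks the gene body) and within-list percentile of −log10 p (vertical axis), with 1 row per peak list and bars wider than the regions. The bar at 154.3 kb stands between 86.9 and 94.7 in 5 lists and is missing from the 5-fluorouracil HSC row, while the bar at the start is at 98.0 or higher in all rows.

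Between cell types, wild-type HPC was compared with wild-type HSC. Of 134 regions of the 10 genes in wild-type HPC, 53 were absent from wild-type HSC, 39.6% (31.7% to 48%), against 44.6% of the whole list. Of 90 in wild-type HSC, 9 were absent from wild-type HPC, 10% (5.35% to 17.9%), against 8.77% of the whole list. At equal list length the shares were 19.3% of the regions in wild-type HPC, against 24.3% over all regions, and 24.4% of those in wild-type HSC, against 23.7%. All 10 genes had more regions in wild-type HPC alone, as had 70.3% of all genes, and at equal list length 2 did, 5 had more in wild-type HSC alone and 3 were equal.

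Arid1b held 21 of the 53 regions, and Smarca2 and Kat6a 6 each. The 3 strongest were all in the far part of the Arid1b body: chr17:5302960-5303776, with a fold enrichment of 23.6 at percentile 89.9, chr17:5316431-5316980, with 21.0 at percentile 82.8, and chr17:5310982-5311427, with 15.8 at percentile 74.9. Of 13167 wild-type HPC regions at or above percentile 80, 783 were absent from wild-type HSC (5.95%). Among 29 such regions of the 10 genes 2 were absent, a share near that of all. These were the first 2 of the Arid1b regions.

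The first Arid1b region, 308.3 kb past the start, had a fold enrichment of 24.7 in knockout HPC and 23.6 in wild-type HPC, was absent from knockout HSC and wild-type HSC, and had 6.87 in 5-fluorouracil HSC and 5.27 in vehicle HSC. Its percentiles were 90.3 in knockout HPC, 89.9 in wild-type HPC, 28.1 in 5-fluorouracil HSC and 19.0 in vehicle HSC. The region at 321.6 kb showed a like pattern, with 18.8 in knockout HPC, 21.0 in wild-type HPC, none in the 8-week HSC lists, 8.21 in 5-fluorouracil HSC and 9.09 in vehicle HSC. Both were thus strong in the HPC lists and weak or unlisted in the HSC lists. A short way beyond the second, the region at 332.8 kb stood at percentile 99.3 or higher in every list, so the contrast lay within a short stretch of 1 gene.

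**Figure D5:**
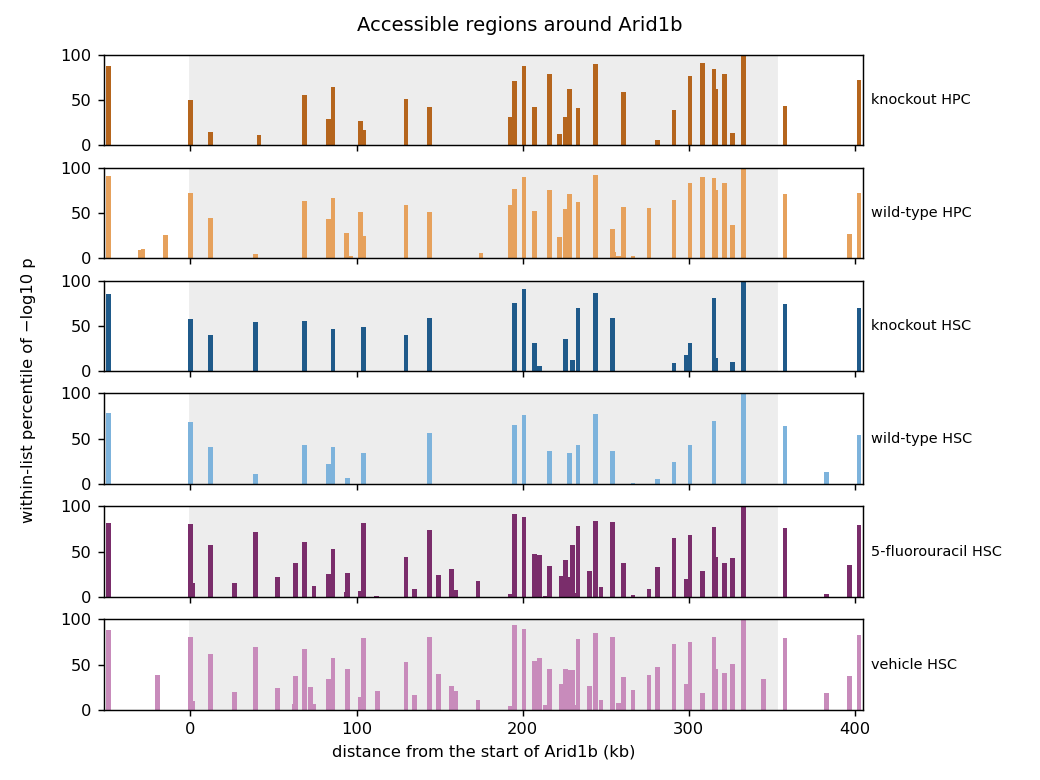
Accessible regions around Arid1b by distance from its start (horizontal axis, in kb; grey marks the gene body) and within-list percentile of −log10 p (vertical axis), with 1 row per peak list and bars wider than the regions. The bars at 308.3 and 321.6 kb are at 78.3 or higher in both HPC rows and at 40.6 or lower or missing in the HSC rows, while the bar at 332.8 kb is at 99.3 or higher in every row.

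Other genes had HPC regions of this kind. Across the 10 genes, 12 regions were in both HPC lists and in neither 8-week HSC list, 5.97% of the 201 and 10.2% of all merged regions. Arid1b held 5 of them, Smarcb1 2, Kat6a 2, and Crebbp, Smarca2 and Arid1a 1 each. The Kat6a region chr8:22935622-22936074 had a fold enrichment of 21.3 in knockout HPC and 19.6 in wild-type HPC, against 6.58 in 5-fluorouracil HSC and 5.02 in vehicle HSC. Only 2 of the 12 were absent from the 16-week HSC lists as well: chr17:5216911-5217345 in Arid1b, with 6.79 in knockout HPC and 6.66 in wild-type HPC, and chr8:22962037-22962521 between Kat6a and Ank1, 12618 bp from Ank1, with 17.2 in knockout HPC and 14.8 in wild-type HPC. The share of regions in both HPC lists and no HSC list was 0.995% for the 10 genes and 4.02% over all.

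The reverse pattern, all 4 HSC lists and no HPC list, was found at 1 region, 0.498% of the 201 and 1.83% of all. It was chr14:21703209-21703737 in Dupd1 beyond Kat6b, its fold enrichment being 8.14 in knockout HSC, 6.65 in wild-type HSC, 7.70 in 5-fluorouracil HSC and 8.50 in vehicle HSC. Its percentile was 51.0 in knockout HSC, 30.4 in wild-type HSC, 71.4 in 5-fluorouracil HSC and 76.9 in vehicle HSC. The strongest wild-type HSC region absent from wild-type HPC was chr16:4203600-4203937 in Crebbp, with 17.8 at percentile 63.8. After it came the Smarca2 region from 26607003 described above, with 6.15 at percentile 32.4, and the Dupd1 region.

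At this Crebbp position the wild-type HPC list had only a neighbouring region, chr16:4204242-4204500, with 8.51 at percentile 6.89. Knockout HPC had a region across the position, chr16:4203595-4204138, with 9.96 at percentile 7.72. Within each HSC list the region at this position stood higher. Its fold enrichment was 24.8 in knockout HSC, 17.8 in wild-type HSC, 18.6 in 5-fluorouracil HSC and 20.6 in vehicle HSC. Its percentiles were 79.3, 63.8, 76.5 and 83.4 of those lists in the same order. A converse case was in the Smarca2 body at chr19:26645964-26646673, chosen after its values were seen. It stood at percentile 98.7 in knockout HPC and 99.0 in wild-type HPC, against 71.3 in knockout HSC, 72.4 in wild-type HSC, 77.5 in 5-fluorouracil HSC and 73.2 in vehicle HSC. Both regions had different places within the HPC and the HSC lists.

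In knockout cells, knockout HPC was compared with knockout HSC. Of 101 regions in knockout HPC, 23 were absent from knockout HSC, 22.8% (15.7% to 31.9%), against 27.8% of the whole list. Of 100 in knockout HSC, 21 were absent from knockout HPC, 21.0% (14.2% to 30%), against 21.9% of the whole list. By gene, 4 had more in knockout HPC alone, 3 in knockout HSC alone and 3 were equal, and over all genes 37.1% had more in knockout HPC alone and 23.4% in knockout HSC alone. With lists of equal length the split was 2, 5 and 3. Kat6a had 3 in knockout HPC alone and 0 in knockout HSC alone, while Kat6b had 2 and 6. Since this comparison and that of the wild-type cells use different lists on both sides, the values stand side by side and their difference was not tested.

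Arid1b led here too, with 10 regions in knockout HPC alone and 6 in knockout HSC alone. The strongest of knockout HPC alone were its regions chr17:5302925-5303782, with a fold enrichment of 24.7 at percentile 90.3, chr17:5210913-5211492, with 18.3 at percentile 78.8, and chr17:5316438-5316956, with 18.8 at percentile 78.3. The strongest of knockout HSC alone were chr17:5248851-5249555 and chr17:5034067-5034569 in Arid1b, with 13.0 at percentile 58.6 and 14.5 at percentile 54.6, and chr14:21525725-21526102 in Kat6b, with 18.0 at percentile 53.3. The first set includes both Arid1b regions that were strong in HPC above. Those of knockout HSC alone were all found in wild-type HPC, at percentiles 32.5, 3.94 and 29.5 in the same order.

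Further genes of the same pathways were taken as a list: 21 other SWI/SNF subunit genes and 15 other acetyltransferase genes. In knockout HPC against wild-type HPC, 1 SWI/SNF gene had more regions in knockout HPC alone and 14 more in wild-type HPC alone, and the acetyltransferase genes split 2 and 7. Over all protein-coding genes, 5.28% had more in knockout HPC alone and 58.3% in wild-type HPC alone. Smarcd1, a core subunit gene, and Brpf3, a scaffold of MYST acetyltransferase complexes, each had 0 in knockout HPC alone and 4 in wild-type HPC alone. Smarcc1, another core subunit gene, and the enzyme genes Kat2b and Kat7 each had 1 and 0. At equal list length Smarcd1 had 0 and 0 and Brpf3 1 and 2, while Smarcc1 and Kat2b had 2 and 0 each and Kat7 1 and 0. Counts of named genes are as deposited where equal length is not stated, and can follow list length. When the longer list was limited to the length of the shorter, the SWI/SNF genes split 3 and 5 and the acetyltransferase genes 8 and 3, which turned the direction of the second list. For the pathway genes too, no split of all genes at equal length stands beside these.

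In knockout HSC against wild-type HSC, 13 SWI/SNF genes had more in knockout HSC alone and 2 more in wild-type HSC alone, and the acetyltransferase genes split 8 and 1. Over all genes the shares were 47.7% and 9.44%. Brd7, a PBAF subunit, Ss18, a BAF subunit, and Kat5, the Tip60 enzyme, each had 4 in knockout HSC alone and 0 in wild-type HSC alone. Bicra, a subunit of the non-canonical BAF form, Kat2a, the Gcn5 enzyme, and Meaf6, of MYST complexes, each had 5 and 1, a like net number. Dpf1, a neuronal BAF subunit, had 1 and 4, and Trrap, of several acetyltransferase complexes, 0 and 1. The splits at equal list length were 8 and 5 for SWI/SNF genes and 5 and 4 for acetyltransferase genes.

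In 5-fluorouracil HSC against vehicle HSC, 2 SWI/SNF genes had more in 5-fluorouracil HSC alone and 11 more in vehicle HSC alone, and the acetyltransferase genes split 3 and 8. Over all genes the shares were 9.30% and 46.5%. Phf10, a PBAF subunit, had 0 in 5-fluorouracil HSC alone and 4 in vehicle HSC alone, and Smarcd2 and Brpf3 each had 0 and 3. In the other direction were Ncoa3, a nuclear receptor coactivator, with 2 and 0, and the BAF subunits Actl6a and Bcl7a with 1 and 0 each. At equal length the SWI/SNF genes split 6 and 7 and the acetyltransferase genes 8 and 3, again with the second list turned.

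In wild-type HPC against wild-type HSC, 19 SWI/SNF genes had more in wild-type HPC alone and 1 more in wild-type HSC alone, and the acetyltransferase genes split 13 and 1. Over all genes the shares were 70.3% and 2.77%. Ncoa3 had 9 in wild-type HPC alone and 0 in wild-type HSC alone, and Bcl7a, Brpf3 and Kat2a 7 and 0 each. Smarcc2 and Trrap had 0 in wild-type HPC alone and 1 in wild-type HSC alone. Equal list length gave splits of 11 and 5 for SWI/SNF genes and 8 and 6 for acetyltransferase genes. Among the named genes, Ncoa3 then had 3 and 2, Bcl7a 4 and 1, Brpf3 3 and 1 and Kat2a 1 and 2. Smarcc2 had 0 and 3, and Trrap 0 and 1.

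In knockout HPC against knockout HSC the splits were 11 and 8 for SWI/SNF genes and 7 and 3 for acetyltransferase genes, and the shares over all genes were 37.1% and 23.4%. Ncoa3 had 7 in knockout HPC alone and 2 in knockout HSC alone, and Dpf1 5 and 1. Meaf6 had 1 and 4, and Actl6b, a neuronal BAF subunit, 1 and 3, while Smarcd1 and Ss18 had 0 and 2 each. For lists of equal length the splits were 8 and 9 for SWI/SNF genes, turned in direction, and 6 and 5 for acetyltransferase genes. As deposited, the longer peak list of each pair had the surplus in more genes of both lists.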

How the data were processed

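ATAC-seq had been run on 18 samples in 6 groups. Per the submitters' processing notes, Bowtie2, MACS2 and the build mm10 (GRCm38) were used, with no versions and no word on how replicates were combined. The labels name 1 list per group, so the 6 deposited peak lists were taken as pooled. Each deposited row gives an interval, a fold enrichment (a ratio to local background), a −log10 p, a score and a summit offset in bp, all as the authors' peak caller wrote them; the deposited scores were not used further. Depth per sample is unknown, and −log10 p grows with it.

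Rows overlapping by at least 1 bp were merged into regions within a list, and across lists for the 201. A merged region was in a list where that list had any region within it, even if it was joined only through another list. In the comparisons of a pair of lists, a region was absent where it overlapped no region of the other list. Regions of a chained locus are given with each list's own coordinates. Genes came from the RefSeq table of GRCm38.p6 (21887 protein-coding genes), which gives no exons. Python 3.11.15, pandas 2.3.3 and SciPy 1.17.1 were used, and the overlap step was tested on simulated lists.

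The 10 genes, the pathway and marker lists and the motifs were chosen with earlier results of these data known. Named were the start region, the strongest shared region away from it (that of Smarca4 is not reported here), and per comparison and direction the 3 strongest regions of a single list; of the pathway lists, up to 2 genes per list, comparison and direction with the largest net number, with some of those that tied.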

Additional observations from a re-analysis of the deposited data

How the results depend on the processing

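Of 73 recomputed shares, 62 moved by less than the 95% interval of the main value, among them all those with 200 bp windows around summits, with only regions nearest to the named gene, with absence over 1 kb, and without Arid1b (added after seeing the data). Without the weakest 25% of each list, the share of knockout HPC regions absent from wild-type HPC was 0%, and that of wild-type HSC regions absent from knockout HSC 2.90%. With lists of equal length, absence from the other list was 15.2% for wild-type HPC against knockout HPC, 10.7% for knockout HSC against wild-type HSC, 12.3% for 5-fluorouracil HSC and 6.54% for vehicle HSC, and 19.3% for wild-type HPC and 24.4% for wild-type HSC; fewer regions enter by construction. In gene bodies alone, 33.3% of knockout HPC regions were absent from knockout HSC, against 27.8% of the whole knockout HPC list. Also in gene bodies, 22.4% of regions were in all 6 lists, against 32.2% of all merged regions. Neither share over all regions was limited to gene bodies. With every list limited to the shortest, 47.8% were in all 6, and 43.9% over all merged regions.

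No paired analysis was possible because each list pools all samples of its group, and for the same reason leaving out a sample was not done. Depth is unknown, so absence means only that no region was listed.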
